A study of Mus musculus and Homo sapiens with 23 samples.

Results

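The Schlafen genes of the mouse were followed in BV2, a line of immortalised microglial cells of the mouse. The members were the 7 genes Slfn1, Slfn2, Slfn3, Slfn4, Slfn5, Slfn8 and Slfn9, found by matching the RefSeq transcript of each row of the deposited tables to a gene symbol. They held 8 of 28246 transcript rows, and 7 of the 21599 genes left after rows of one symbol were summed. RNA was measured in 1 library of BV2 cells stimulated for 3 h with lipopolysaccharide (LPS), a membrane component of Gram-negative bacteria that Toll-like receptor 4 recognises, and in 1 library of unstimulated BV2 cells. The labels name the same cell line for both and no genetic change for either, and the RNA was total RNA. The series has 23 samples. The other 21 are chromatin immunoprecipitation and input samples and were not analysed here.

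Schlafen genes, named after the German word for sleeping, were first described in developing mouse T cells, where their levels change with growth arrest and activation. Mouse members are usually divided by length into a short group (Slfn1 and Slfn2), an intermediate group (Slfn3 and Slfn4) and a long group that carries a helicase-like region (Slfn5, Slfn8 and Slfn9 among others). Members of the family in mouse and human bind or cleave transfer RNA or restrict viruses, and many of the genes respond to type I interferon, which macrophages make after LPS.

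Levels are FPKM, fragments scaled to the length of the transcript and the size of the library, so genes can be compared per length. The range after an FPKM value is the interval deposited with it. For a gene summed over rows, such as Slfn8, it was combined from the rows' deposited intervals as if the rows were independent. The range reflects counting error and how fragments were assigned to transcripts, and not the spread between cultures. With 1 library per condition there was no replicate check and no test, and every difference is between these 2 libraries. The change given for each gene is its log2(FPKM + 1) in the LPS library minus that in the unstimulated library, and a gene was called higher or lower when the change was at least 1 in size (a fold of 2 on that scale). Genes that reached 1 FPKM in at least 1 library were counted, which left 10036. Implied fragments, the count that a deposited interval corresponds to, are given where the precision of a value depends on them. They summed to 16900000 in the LPS library and 13800000 in the unstimulated library, to the nearest 100000. The library size by which FPKM was divided, as implied by the deposited values, was 1.05 times as large in the LPS library as in the unstimulated library. The libraries thus differed less in this divisor than in these sums, and the reason was not tested.

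All 7 Schlafen genes were higher in the LPS library, by changes of 1.12 to 5.06 with a median of 3.17. For all 7 the intervals of the 2 libraries were separate, that of Slfn8 being combined over 2 rows. Among all counted genes 8.54% were called higher, 8.48% were called higher with separate intervals and 12.4% were called lower, and the median change was -0.24. Slfn1, Slfn4, Slfn5 and Slfn8 were below an FPKM of 1 in the unstimulated library and were counted only because the LPS library was above it, so their calls follow in part from the filter. Slfn2, Slfn3 and Slfn9 were above 1 FPKM in both libraries. All 3 were called higher, as were 6.66% of the 9714 genes that had at least 1 FPKM in the unstimulated library. Summed over the family, the level was 848 FPKM in the LPS library and 29.3 FPKM in the unstimulated library, a ratio of 29.0.

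**Figure D1:**
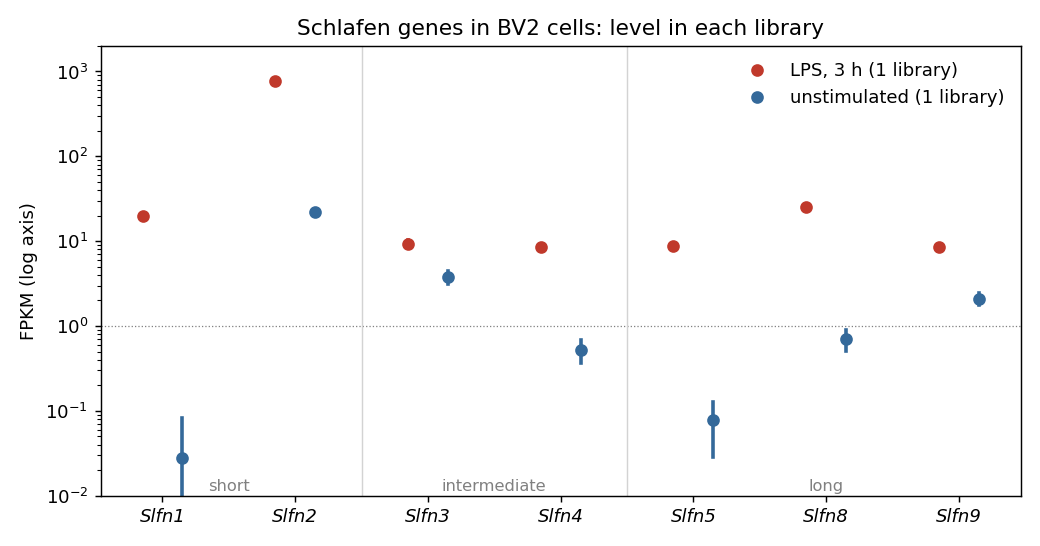
FPKM of each Schlafen gene on a log axis, with the LPS library left of the unstimulated library. Points are the deposited values (summed over 2 rows for Slfn8), and the dotted line is 1 FPKM. Vertical lines are the deposited intervals (combined over 2 rows for Slfn8). They are often smaller than the point, and reach 0, off the axis, for Slfn1 in the unstimulated library. All 7 genes are higher in the LPS library, and Slfn2 is the highest in both.

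The short group held the largest changes at the pseudocount of 1 used here, an order that depends on it: with 0.1 the largest were those of Slfn1 (7.29) and Slfn5 (5.63), ahead of Slfn2 (5.11), and with 5 that of Slfn8 (2.42) passed that of Slfn1 (2.31). Slfn2 is the gene mutated in elektra mice, whose T cells fail to stay quiescent. It stood at 768 FPKM (758 to 777) in the LPS library, against 22.1 FPKM (20.4 to 23.8) in the unstimulated library. It was by far the most abundant Schlafen RNA in both libraries, with 90.5% of the family's summed FPKM in the LPS library and 75.5% in the unstimulated library. Among the 10036 counted genes it ranked 149th by level in the LPS library and 2751st in the unstimulated library. The ratio of 34.7 had a 95% interval of 32.2 to 37.5 from counting error alone (Clopper-Pearson, on 25864 and 709 implied fragments in the LPS and unstimulated libraries). Its change of 5.06 ranked 55th of all counted genes, while its ratio was smaller than those of Slfn1 and Slfn5. The counting interval of Slfn2 overlapped the approximate interval of Slfn8.

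Slfn1, the founding member, slows growth when expressed in mouse thymocytes. Its level was 19.9 FPKM (18.5 to 21.3) in the LPS library, against 0.0275 FPKM (0 to 0.0826) in the unstimulated library. The unstimulated value rested on 1 implied fragment and the LPS value on 759, so the gene was close to undetected in the unstimulated library. The ratio of 723 therefore has a counting interval of 129 to 28582, and the change of 4.35, which ranked 84th, depends on the pseudocount. Of 7 markers of T and B cells, the lineage in which Slfn1 was found, Cd3e, Cd8a and Ms4a1 were listed at 0 in both libraries, and 1 reached 1 FPKM, the kinase gene Lck (8.09 FPKM in the LPS library and 1.53 FPKM in the unstimulated library). The T and B cell markers summed to 8.12 FPKM in the LPS library and 1.64 FPKM in the unstimulated library, and their part in the Schlafen values was not tested.

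The intermediate genes lie side by side and differed in how much they changed. Slfn4, known in mice as a gene of activated macrophages and other myeloid cells, had 8.45 FPKM (7.83 to 9.08) in the LPS library, against 0.521 FPKM (0.362 to 0.680) in the unstimulated library. The ratio was 16.2 (11.9 to 22.6, on 732 and 43 implied fragments). Slfn3, studied in mouse regulatory T cells and in gut epithelium, had 9.36 FPKM (8.35 to 10.4) in the LPS library, against 3.76 FPKM (3.10 to 4.41) in the unstimulated library. The 2 genes thus reached overlapping levels after LPS from separate levels without it. The ratio of Slfn3 was 2.49 (2.03 to 3.07), the smallest of the family, and its counting interval did not overlap that of Slfn4. The change of Slfn3, 1.12, was just inside the size rule: it was 0.71 with a pseudocount of 5, 0.9999 after rescaling to TPM and 0.79 when the deposited bounds were set against the change.

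Among the long genes, Slfn5 was nearly silent in the unstimulated library. It stood at 8.72 FPKM (8.21 to 9.23) in the LPS library and at 0.0787 FPKM (0.0289 to 0.128) in the unstimulated library, on 1164 and 10 implied fragments. The ratio of 111 had a counting interval of 60.0 to 232. The RefSeq gene table lists an antisense RNA, Slfn5os, over Slfn5. The sources used here do not say whether the counting used strand, so fragments of the pair cannot be told apart.

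Slfn8, which lowers T cell proliferation when overexpressed in mice, reached 25.5 FPKM (24.0 to 27.03) in the LPS library, against 0.696 FPKM (0.508 to 0.890) in the unstimulated library. It was place 2 of 7 by level in the LPS library and place 4 of 7 in the unstimulated library. The ratio was 36.6, and its interval, 28.0 to 49.5, held that of Slfn2. This interval rests on implied fragments summed over 2 overlapping transcript rows, whose deposited intervals also reflect how fragments were assigned. It is therefore approximate and not one of counting error alone. Slfn9, the long gene next to it, had 8.56 FPKM (7.92 to 9.19) in the LPS library, against 2.09 FPKM (1.77 to 2.42) in the unstimulated library. Its ratio of 4.09 (3.45 to 4.86) was smaller than that of Slfn8, and their intervals did not overlap. The change of Slfn9 was 1.63, and 0.93 with a pseudocount of 5. Fragments of closely related genes such as Slfn8 and Slfn9, or Slfn3 and Slfn4, can be assigned to either copy, so the split within each pair is uncertain.

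Slfn8 was the member with 2 transcript rows, which end at the same place and start 88 bases apart. The row with the downstream start had 17.0 FPKM (15.8 to 18.2) in the LPS library, against 0.0111 FPKM (0 to 0.0559) in the unstimulated library. The row with the upstream start had 8.49 FPKM (7.50 to 9.48) in the LPS library, against 0.685 FPKM (0.497 to 0.873) in the unstimulated library. The downstream start thus held 66.7% of the Slfn8 level in the LPS library and 1.60% in the unstimulated library. These shares are Cufflinks estimates between transcripts that overlap over nearly all of their locus, and the unstimulated value of the downstream row corresponds to less than 1 fragment.

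The order of the levels differed between the libraries. In the LPS library it ran Slfn2, Slfn8, Slfn1, Slfn3, Slfn5, Slfn9, Slfn4. The first 3 were separate from their neighbours by their intervals, while neighbours among the last 4 overlapped. In the unstimulated library it ran Slfn2, Slfn3, Slfn9, Slfn8, Slfn4, Slfn5, Slfn1, where Slfn8 overlapped Slfn4, Slfn5 overlapped Slfn1 and the other neighbours were separate. Slfn1 was thus place 3 of 7 in the LPS library and last in the unstimulated library. Slfn3 and Slfn9, which followed Slfn2 in the unstimulated library, had the smallest changes. Without Slfn2 the other 6 genes summed to 80.5 FPKM in the LPS library and 7.17 FPKM in the unstimulated library.

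**Figure D2:**
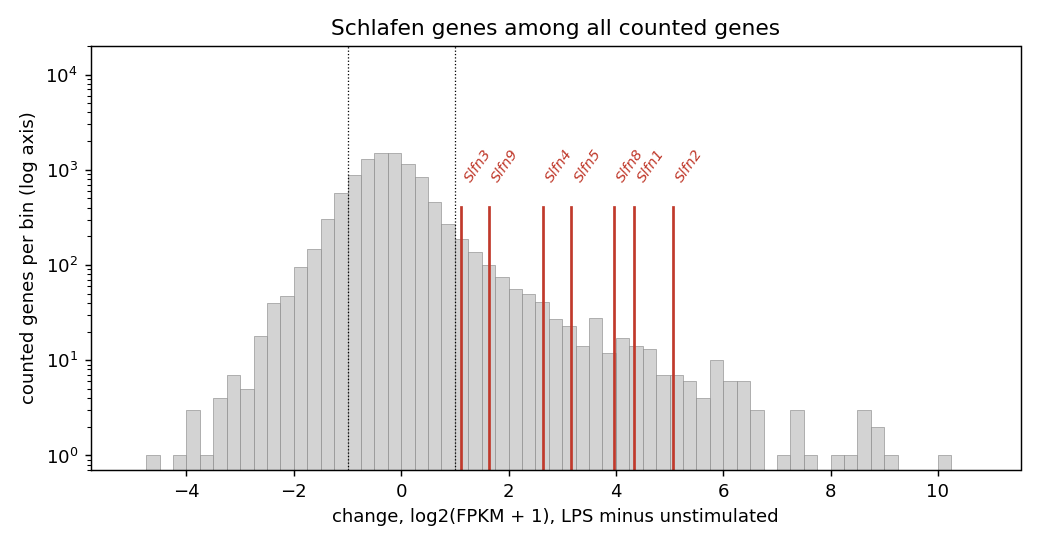
Number of counted genes by change on the log2(FPKM + 1) scale, LPS minus unstimulated, in grey (log axis), with the 7 Schlafen genes as red lines and the size rule as dotted lines. The 7 lines run from Slfn3 at 1.12 to Slfn2 at 5.06, to the right of the bulk of the 10036 genes.

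Slfn3 and Slfn9 were the members whose change fell below the size rule in some settings. Counting genes by the unstimulated library alone left out Slfn1, Slfn4, Slfn5 and Slfn8 and kept 3 members. Across the settings tried, the change of Slfn2 kept between 4.83 and 5.35, while that of Slfn1 ran from 2.31 to 7.29, that of Slfn5 from 1.43 to 5.63, that of Slfn4 from 1.28 to 3.78 and that of Slfn8 from 2.42 to 5.01, in each case lowest with a pseudocount of 5 and highest with 0.1. The direction was positive in every setting that gave a value, 12 for Slfn2, Slfn3 and Slfn9 and 11 for the other 4 genes, the main processing included. Most of these settings could not have changed it. A pseudocount leaves the direction as it is, and the filters and the row status left these values unchanged. Those that could were TPM, median scaling, quantile normalisation, the deposited bounds and, for Slfn8 alone, the highest transcript row.

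**Figure D3:**
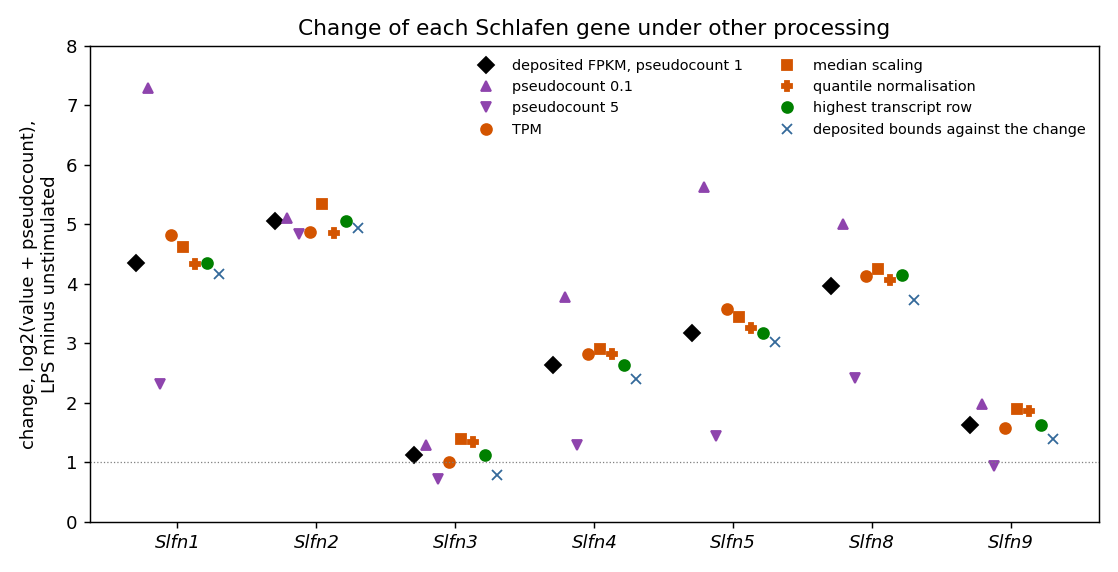
Change of each Schlafen gene, LPS minus unstimulated, on the log2(value + pseudocount) scale under the main processing (black diamonds) and 7 alternatives, with the size rule as a dotted line. Slfn2 stays between 4.83 and 5.35, Slfn1 spreads from 2.31 to 7.29, and Slfn3 and Slfn9 are the genes with points below the rule.

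The 7 genes lie together on chromosome 11, where they span 263 kb (mm9 chromosome 11, 82765604 to 83028656, taking the outer ends of Slfn5 and Slfn3). In order along the chromosome they are Slfn5 (82765604 to 82778352), Slfn9 (82793805 to 82805332), Slfn8 (82815660 to 82834312), Slfn2 (82878614 to 82884180), Slfn1 (82930347 to 82936161), Slfn4 (82988688 to 83003718) and Slfn3 (83004832 to 83028656). The smallest changes were those of Slfn3 at one end and of Slfn9 beside Slfn5. A further row inside the cluster, between Slfn8 and Slfn2 (82841630 to 82854035), matched no symbol. The RefSeq gene table places the pseudogene Slfn10-ps between these 2 genes. This row had 2.58 FPKM (2.21 to 2.95) in the LPS library and 1.15 FPKM (0.895 to 1.40) in the unstimulated library, a change of 0.74 that missed the size rule although the intervals were separate. Slfn14, a long member best known from platelets in human and mouse, lies beyond Slfn3 and was listed at 0 in both libraries, as was Slfnl1, a Schlafen-like gene on chromosome 4.

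Of the 10 counted genes nearest to the cluster, 5 on each side, 0 were called higher and 1 was called lower, with a median change of -0.24. Among all counted genes 8.54% were called higher and 12.4% lower, also with a median of -0.24. For 10 genes these counts are near the shares over all counted genes. Nle1, a ribosome assembly gene 43.7 kb before Slfn5, had 48.1 FPKM (45.8 to 50.4) in the LPS library and 38.5 FPKM (36.4 to 40.6) in the unstimulated library, a change of 0.31. On the other side the non-coding AI662270, 8.42 kb past Slfn3, had 199 FPKM (194 to 204) in the LPS library and 274 FPKM (267 to 280) in the unstimulated library. Ap2b1, a clathrin adaptor gene, had the highest change of the 10, 0.92, with 11.9 FPKM in the LPS library and 5.80 FPKM in the unstimulated library. The gene called lower was AA465934, with 0.859 FPKM (0 to 1.79) in the LPS library and 3.20 FPKM (1.42 to 4.97) in the unstimulated library, where the intervals overlapped. Others were Zfp830 (-0.78), Rad51d (-0.59), Taf15 (-0.20), Lig3 (0.10) and Rffl (0.40), all given as changes on the log2(FPKM + 1) scale.

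**Figure D4:**
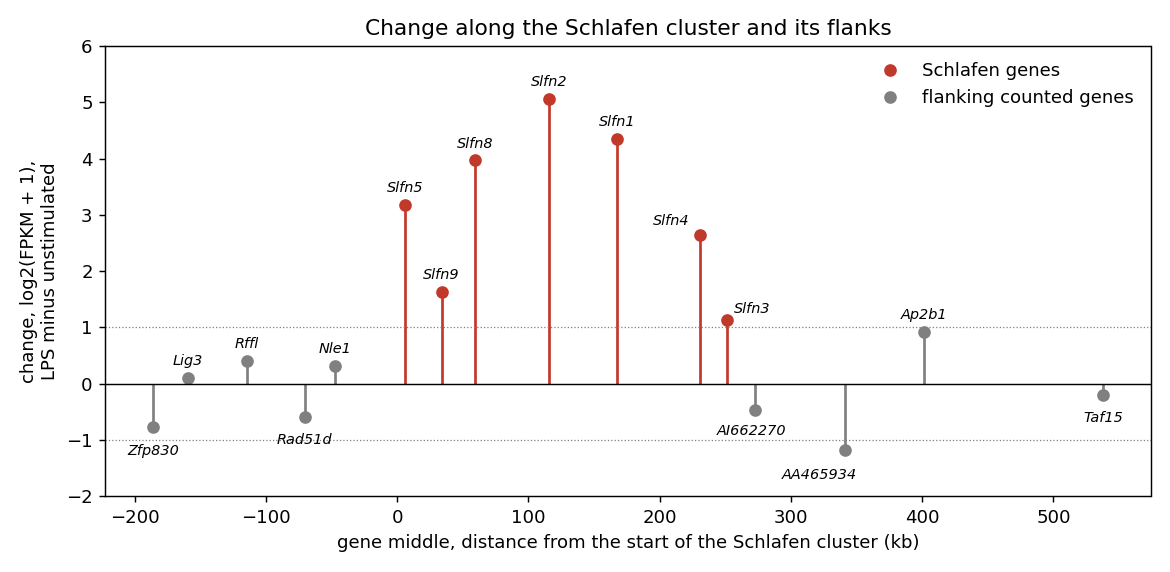
Change on the log2(FPKM + 1) scale, LPS minus unstimulated, against the distance of each gene's middle from the start of the Schlafen cluster in kb. Schlafen genes are red, 9 of the 10 nearest counted genes are grey, and dotted lines mark the size rule; the 7 red points lie above 1 and the grey points between -1.17 and 0.92.

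Because all 7 members of the cluster were called higher, their promoter windows were compared, each 250 bases before to 50 bases after a transcript start (RefSeq, GRCm38.p6). All 7 genes had a window, and Slfn8 had 2. The response element bound by interferon-activated factors was searched by its core, AAANNGAAA, on both strands. It was present in windows of 5 of the 7 genes, Slfn1, Slfn4, Slfn5, Slfn8 and Slfn9, and in 10.6% of all 32851 windows of the mouse table. The windows of Slfn8 and Slfn9 are 84.9% identical, so their matches are not independent, and the 5 of 7 counts genes, not windows. A kB site written GGANTTTCC was in 0 of the 7 genes and in 1.25% of all windows. These letters fix A at the third base. Forms with G there were not searched, and the windows of Slfn2 and Slfn5 hold GGGATTTCC and GGGGTTTCC, respectively. The share of all windows with such forms was not counted, so these matches cannot be set against a background. A gamma-activated site written TTCNNNGAA was in 0 of the 7 genes and in 8.30% of all windows. A match is a description of these letters, and no match says only that they are not in this window.

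The windows of the long genes are shown for the response element core, which all 3 hold. Capitals mark it on either strand, and in Slfn5 a pair of matches overlap:
Slfn5, GRCm38.p6 chr11:82951852-82952151, plus strand: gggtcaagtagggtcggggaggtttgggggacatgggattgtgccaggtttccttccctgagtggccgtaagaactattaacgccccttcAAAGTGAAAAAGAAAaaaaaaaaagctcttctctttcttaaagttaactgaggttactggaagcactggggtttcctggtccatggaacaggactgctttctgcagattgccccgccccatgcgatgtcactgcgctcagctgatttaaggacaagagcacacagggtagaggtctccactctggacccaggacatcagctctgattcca
Slfn8, upstream start, GRCm38.p6 chr11:83020761-83021060, minus strand: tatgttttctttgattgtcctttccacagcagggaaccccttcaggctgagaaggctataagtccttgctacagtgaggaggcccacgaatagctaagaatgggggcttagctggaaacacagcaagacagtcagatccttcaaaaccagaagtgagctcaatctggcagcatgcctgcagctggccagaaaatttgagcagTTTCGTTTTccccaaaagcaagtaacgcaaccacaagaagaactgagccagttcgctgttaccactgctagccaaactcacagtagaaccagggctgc
Slfn9, GRCm38.p6 chr11:82991781-82992080, minus strand: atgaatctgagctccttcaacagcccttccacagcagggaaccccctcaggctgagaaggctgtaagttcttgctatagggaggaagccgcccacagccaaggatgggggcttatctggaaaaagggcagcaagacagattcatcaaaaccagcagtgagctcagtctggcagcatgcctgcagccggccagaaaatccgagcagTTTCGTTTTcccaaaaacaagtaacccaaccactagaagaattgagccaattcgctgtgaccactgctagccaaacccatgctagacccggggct
The windows of Slfn8 and Slfn9 were alike over their whole length, with 84.9% identical bases among 292 aligned, whereas the other 20 pairs of members' windows had 56.3% to 66.0%. Both hold the same form of the core, AAAACGAAA on the opposite strand, beginning 48 bases before the upstream start of Slfn8 and 45 bases before the start of Slfn9. The 2 genes differed in their ratios, 36.6 for Slfn8 and 4.09 for Slfn9, and in their unstimulated levels, 0.696 FPKM for Slfn8 and 2.09 FPKM for Slfn9.

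The short and intermediate genes shared another run of bases. Reading of the windows showed ACTTCCTGG in 4 of the 7 genes, Slfn1, Slfn2, Slfn3 and Slfn4, on the same strand as the gene and beginning 74, 55, 42 and 73 bases before the start. It was chosen after these sequences were seen. The letters, searched on both strands, stand in 0.843% of all windows and hold GGAA in reverse, the core that ETS family factors bind, a family to which the macrophage factor PU.1 belongs. The windows of Slfn1 and Slfn4 share 15 bases in a row there, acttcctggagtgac. The windows of the 3 genes with the largest ratios among these 4 are shown for this run, with capitals for it and for the response element core:
Slfn1, GRCm38.p6 chr11:83116570-83116869, plus strand: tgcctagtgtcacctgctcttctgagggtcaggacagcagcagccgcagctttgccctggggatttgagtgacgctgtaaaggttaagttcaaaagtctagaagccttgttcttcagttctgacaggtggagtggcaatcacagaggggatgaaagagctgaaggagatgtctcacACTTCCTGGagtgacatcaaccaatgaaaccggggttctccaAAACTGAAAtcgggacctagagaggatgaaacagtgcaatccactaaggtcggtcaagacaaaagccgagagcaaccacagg
Slfn2, GRCm38.p6 chr11:83064862-83065161, plus strand: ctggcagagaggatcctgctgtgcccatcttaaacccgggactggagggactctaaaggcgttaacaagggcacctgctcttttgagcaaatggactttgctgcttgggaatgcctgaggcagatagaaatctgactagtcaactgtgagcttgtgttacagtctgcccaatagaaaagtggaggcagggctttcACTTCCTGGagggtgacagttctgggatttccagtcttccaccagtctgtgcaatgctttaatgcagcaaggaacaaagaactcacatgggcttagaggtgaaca
Slfn4, GRCm38.p6 chr11:83174936-83175235, plus strand: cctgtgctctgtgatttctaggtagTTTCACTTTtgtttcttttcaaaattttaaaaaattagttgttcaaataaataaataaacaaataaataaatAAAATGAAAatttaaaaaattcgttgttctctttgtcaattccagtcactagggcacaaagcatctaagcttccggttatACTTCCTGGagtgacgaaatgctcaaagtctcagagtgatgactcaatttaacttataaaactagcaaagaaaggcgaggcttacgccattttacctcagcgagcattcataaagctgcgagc
Neither Slfn2 nor Slfn3 had a match to the response element core in this window.

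Genes whose levels were most like those of Slfn2, Slfn1 and Slfn8, the 3 members with the largest changes at a pseudocount of 1, were looked up over the 2 libraries, by the distance in log2(FPKM + 1). For Slfn2 these were Lgals9, the gene of galectin 9 (594 FPKM in the LPS library and 26.3 FPKM in the unstimulated library), at a distance of 0.44, and Tnfaip2, a gene induced by tumour necrosis factor (539 and 22.4 FPKM in the same order), at 0.51. For Slfn1 they were the GTPase gene Tgtp2 (20.3 FPKM in the LPS library and 0.0195 FPKM in the unstimulated library) at 0.03 and the transcription factor gene Batf2 (19.4 and 0.0390 FPKM) at 0.04. For Slfn8 they were the nuclear body gene Sp100 (27.6 FPKM in the LPS library and 0.699 FPKM in the unstimulated library) at 0.11 and Oas2, an oligoadenylate synthetase gene (27.9 and 0.746 FPKM), at 0.13. With 2 libraries this likeness says only that the pairs of levels are close.

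Most counted genes of the interferon system, with which the Schlafen genes are usually discussed, were called higher. The lists here were chosen with earlier results of these data known, and 8.54% of all counted genes were called higher and 12.4% lower. Of 32 genes listed as type I interferon-induced effectors, 31 were counted. Of these, 31 were called higher and 0 lower, with a median change of 4.52, and 16 were counted only through the LPS library. Their changes ran from 1.40 to 8.87, and those of the Schlafen genes except Slfn3 fell inside this range. The range is wide, so this follows in large part from being called higher. The change of Slfn9, 1.63, lies near its lower end and ranked 475th of all counted genes, of which 857 were called higher. Of 10 counted genes of interferon, its receptor and its signalling, 7 were called higher and 0 lower, with a median of 2.26. The 3 that missed the rule were the receptor gene Ifnar1 (0.79), the kinase gene Jak1 (0.27) and the transcription factor gene Irf3 (-0.56), given as changes. Irf3 had 11.2 FPKM (10.2 to 12.3) in the LPS library and 17.1 FPKM (15.8 to 18.4) in the unstimulated library, so its intervals were separate. Ifnb1, the gene of interferon beta, was listed at 0 in the unstimulated library and stood at 16.2 FPKM (13.9 to 18.4) in the LPS library. Irf7 had 338 FPKM (332 to 344) in the LPS library and 4.68 FPKM (3.95 to 5.40) in the unstimulated library, and Irf1 had 252 FPKM (247 to 257) and 6.72 FPKM (4.09 to 10.4) in the same order. Of 9 counted early targets of NF-kB, 9 were called higher, with a median of 5.75.

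Genes of growth control and of RNA cleavage, the processes in which Schlafen proteins have been studied, were looked up as well. Among all counted genes 8.54% were called higher and 12.4% lower. Among 18 counted G1 cyclins, their kinases and inhibitors, 2 were called higher, near the share of all counted genes. In the same list 9 were called lower, and the median was -0.90. The highest change was that of Cdkn1a, the gene of the cell cycle inhibitor p21, with 397 FPKM (391 to 404) in the LPS library and 25.5 FPKM (23.8 to 27.1) in the unstimulated library, and the lowest was that of the cyclin gene Ccne2, with 3.64 FPKM (3.17 to 4.12) and 27.3 FPKM (25.6 to 29.1) in the same order. Cdkn2b, another inhibitor, had 4.81 FPKM in the LPS library and 0.727 FPKM in the unstimulated library. Of 9 counted RNA-cleaving enzymes and inhibitors, 3 were called higher and 1 lower, the share called lower being near the 12.4% of all counted genes, with a median of -0.47. That median ran from -0.67 after rescaling to TPM to -0.09 with a filter at 5 FPKM. The exonuclease gene Isg20 had 216 FPKM (208 to 223) in the LPS library and 2.57 FPKM (1.20 to 4.83) in the unstimulated library, and Zc3h12a, which encodes the messenger RNA cleaving Regnase-1, had 22.0 FPKM (20.8 to 23.2) and 2.10 FPKM (1.72 to 2.48) in the same order.

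The cell line was checked against marker lists. All 10 measured macrophage and microglia markers were at 1 FPKM or more in both libraries and summed to 9163 FPKM in the LPS library and 10249 FPKM in the unstimulated library. Of 6 markers of resting microglia, 1 reached 1 FPKM in the LPS library and 3 did in the unstimulated library, and Sall1 was listed at 0 in both, so BV2 cells show the resting microglial set only in part. None of the 15 markers of neurons, astrocytes, oligodendrocytes, fibroblasts and endothelium reached 1 FPKM in either library. The Schlafen values cannot tell more RNA per cell from more cells that express the genes.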

How the data were processed

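Strand-directional libraries of total RNA from BV2 cells were sequenced to 76-base reads, per the labels' protocols. The authors deposited FPKM values per RefSeq transcript with a lower and an upper bound, made with Cufflinks on mm9, per the submitters' processing notes; neither the version nor the aligner is given in these sources. Symbols came from a RefSeq gene table (GRCm38.p6, used for names) that matched 27560 of 28246 rows (97.6%). Deposited starts were read as 0-based, since the locus width then equalled the table's gene length for 6873 of 8758 genes of 1 transcript, against 314 otherwise. Rows without an OK status in both libraries (391) and those of small RNA genes (702) were dropped. The remaining rows of a symbol were summed, with half-widths combined in quadrature, and unmatched rows stood alone. Implied fragments are the square of 2 × FPKM over the half-width; among rows with 0.5 to 50, 68.9% of 5159 in the LPS library and 67.5% of 5069 in the unstimulated library came within 0.05 of a whole number. Ratio intervals built on them cover counting error only, except for Slfn8, whose summed rows also carry the assignment of fragments between transcripts. None covers the spread between cultures. Genes named are the members, other family rows, the 5 nearest counted genes on each side, the 2 closest in level for each of 3 members, and the 3 largest changes of a list, some lists being given by counts alone; some genes this rule would name are not reported here. The members and lists were chosen with earlier results of these data known. Python 3.11.15, pandas 2.3.3, SciPy 1.17.1 and Biopython 1.88 were used.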

Additional observations from a re-analysis of the deposited data

How the results depend on the processing

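All 7 Schlafen genes were called higher and 0 lower with deposited FPKM, a pseudocount of 0.1, median scaling, quantile normalisation, a filter at 5 FPKM, no filter, the highest transcript row alone and rows of every status. The filter at 5 FPKM, no filter and rows of every status could not change these calls. Every member passed 5 FPKM in the LPS library and had an OK status in all its rows. Taking the highest row alone could change Slfn8 only. With a pseudocount of 5 the changes of Slfn3 (0.71) and Slfn9 (0.93) missed the size rule and 5 genes were called. After rescaling to TPM Slfn3 (0.9999) missed it, and with the deposited bounds against the change it was at 0.79, so 6 were called in each. Counting genes at 1 FPKM or more in the unstimulated library, an alternative chosen after seeing the data, left 3 members, all called higher, because fewer genes enter. The median change of the G1 cyclin list, -0.90, passed the rule after TPM (-1.13), at a pseudocount of 0.1 (-1.02) and with the filters at 5 FPKM and on the unstimulated library (-1.12 in both); the cause was not tested. That of the RNA-cleaving list, -0.47, was -0.67 after TPM and moved nearer 0 with a pseudocount of 5 (-0.20), median scaling (-0.18), quantile normalisation and the deposited bounds (-0.13 in both) and the filter at 5 FPKM (-0.09); the cause was not tested. The scalings moved the median change of all counted genes by -0.20 (TPM), 0.24 (median scaling) and 0.11 (quantile normalisation), and the share of calls that were higher from 40.7% to 26.5%, 59.4% and 53.0%; with a pseudocount of 5 it was 61.9%. The number of genes called lower ran from 1249 to 2116 after TPM and 354 with a pseudocount of 5. No paired analysis was possible because each condition has 1 library, and for the same reason no replicate could be left out. Depth limits Slfn1 and Slfn5 in the unstimulated library, at 1 and 10 implied fragments.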
